A study of Mus musculus with 2 samples.

Results

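Genes of MHC class I antigen presentation were examined in cultured mouse cardiac myofibroblasts after knockdown of *Vgll3*. They comprise 10 genes, taken by symbol from the 24532 genes of the count table: *H2-K1*, *H2-D1*, *B2m*, *Tap1*, *Tap2*, *Tapbp*, *Psmb8*, *Psmb9*, *Psmb10* and *Nlrc5*. The cells were CD45-negative adherent cells from infarcted hearts of C57BL/6 mice, isolated 3 days after MI, and the study's methods name C57BL/6J for work on isolated myofibroblasts. They were transfected by Lipofectamine RNAiMAX with 12.5 nM of a control siRNA (siCtrl) or of 1 siRNA against *Vgll3* (si*Vgll3*), and RNA was taken 72 h later. Both groups thus share the infarct, the sort, the culture and the transfection, and no untransfected culture was analysed here. Whether animals were pooled is not given in the sources used here.

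Cells show samples of their own proteins on the surface through MHC class I. Proteasomes cut proteins into peptides, the TAP transporter carries the peptides into the endoplasmic reticulum, and tapasin helps to load them onto a heavy chain paired with β2-microglobulin. Interferons raise most of these genes in many cell types, partly through NLRC5, a transcriptional coactivator that acts on class I promoters. The heavy chains of C57BL/6 mice that present peptides to most CD8 T cells are encoded by *H2-K1* and *H2-D1*.

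Each condition has 1 library, so the differences below were not checked against replicates, and p-values are left out. Reads assigned to genes numbered 140815237 for siCtrl and 125789276 for si*Vgll3*. Levels are given in TPM, which corrects for gene length and library size. M is the log2 ratio of si*Vgll3* TPM to siCtrl TPM, and A is log2 of the mean TPM. A gene is called lower at M < −0.5 with A > 0, and higher at M > 0.5 with A > 0. Values in square brackets are 95% Clopper-Pearson intervals of the read count ratio, shifted onto the TPM ratio, and they cover counting error only. The targeted gene, *Vgll3*, was at 84.0 TPM after si*Vgll3* against 202 TPM after siCtrl (M = −1.27 [−1.29, −1.24]).

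Of the 10 genes, 9 had A > 0, and 7 of these were lower in si*Vgll3*, while 0 were higher. Over all 11754 genes with A > 0, 11.4% were lower and 5.73% higher. All 9 had an M below 0, beside 57.0% of all genes, and all 9 had a counting interval wholly below 0, beside 45.8%. The whole interval lay below −0.5 for 6 of the 9, beside 8.31% of all genes, and only *Psmb9* had M < −1, beside 3.27%. With the filter at A > 2, which removed *Psmb9*, 6 genes were lower, beside 9.34%, and on CPM 5 were, beside 10.0%. The 9 genes had a median M of −0.70, against −0.05 over all genes. The genes not called lower were *H2-D1* and *B2m*, and *Nlrc5* lay outside the filter on A. Without that filter, 8 of 10 genes had M < −0.5, beside 14.9% of all 14149 genes with an M. *Psmb9* was the least abundant gene to pass the filter, at an A of 0.57, and its siCtrl level alone put it there. In bulk RNA, fewer cells that express a gene and less of its RNA per cell cannot be told apart.

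**Figure D1:**
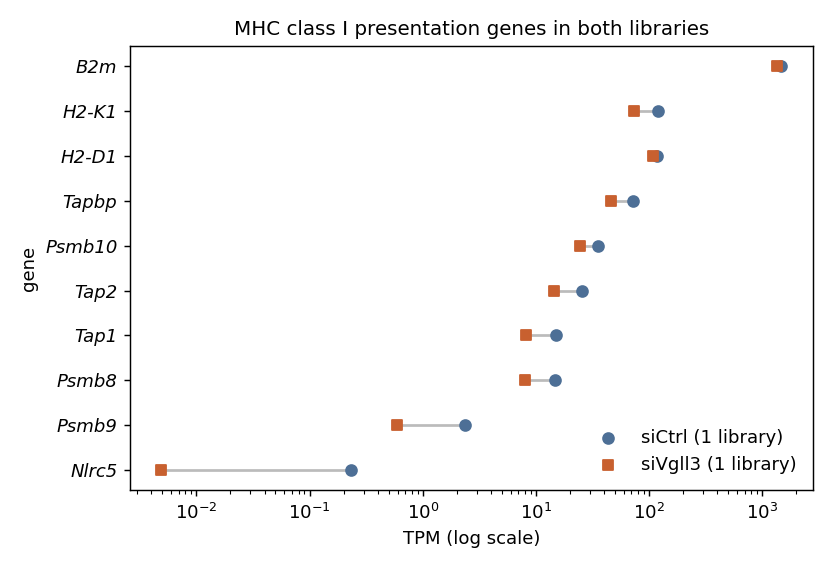
TPM of the 10 genes (log axis) in the siCtrl library (circles) and the si*Vgll3* library (squares), 1 library each, with genes ordered by siCtrl level. All 10 squares lie to the left of their circles, by the widest step for *Nlrc5* and the narrowest for *H2-D1*.

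The promoters of the 2 heavy chain genes are shown first, because these genes, alike in sequence, had different values of M. Sequences are from RefSeq on GRCm38.p6, the assembly also called mm10. The *H2-K1* stretch is chr17:34000330-34000463 on the minus strand and the *H2-D1* stretch is chr17:35262918-35263050 on the plus strand, both written 5′ to 3′. The *H2-K1* stretch lies inside the gene span given below, since the promoter entries of *H2-K1* start further downstream than that span. Capitals mark an NF-kB match, an interferon-stimulated response element (ISRE) in its AGTTTC form, a CRE core (TGACG) and CCAAT boxes (CCAAT), on either strand.
H2-K1: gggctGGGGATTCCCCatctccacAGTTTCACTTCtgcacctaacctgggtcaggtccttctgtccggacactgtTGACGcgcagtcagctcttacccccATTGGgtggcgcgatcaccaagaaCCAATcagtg
H2-D1: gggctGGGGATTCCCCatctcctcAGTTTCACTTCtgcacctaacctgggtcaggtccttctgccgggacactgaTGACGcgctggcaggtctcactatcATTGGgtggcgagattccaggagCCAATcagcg
Both stretches hold the same motifs in the same order, and 117 positions of their alignment were identical (87.3%), with 16 mismatches and 1 gap.

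*H2-K1* (NCBI gene 14972, chr17:33996012-34000619) drew 12671 siCtrl reads and 7196 si*Vgll3* reads. Its level was 74.0 TPM after si*Vgll3* against 121 TPM after siCtrl (M = −0.70 [−0.75, −0.66]). *H2-D1* (NCBI gene 14964, chr17:35263094-35267497) drew 13060 siCtrl reads and 11175 si*Vgll3* reads. Its level was 109 TPM after si*Vgll3* against 118 TPM after siCtrl (M = −0.11 [−0.15, −0.08]). The heavy chains were thus close in siCtrl, where *H2-K1* made up 50.6% of their summed TPM, and apart in si*Vgll3*, where it made up 40.4%. M of *H2-K1* was lower than that of *H2-D1* by 0.59, and the 95% interval of that log odds ratio runs from −0.65 to −0.54 as *H2-K1* minus *H2-D1*.

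Reads of these genes can be hard to place, since the longest open reading frames of *H2-K1* and *H2-D1* were 88.3% identical. Of all 36-base windows of their protein-coding transcripts, 15.02% for *H2-K1* and 23.1% for *H2-D1* also occurred in another gene, most often in each other. Genes of the Q and T regions, among them *H2-Q4* and *H2-T23*, also held some of these windows. Of 100-base windows, 0% for *H2-K1* and 4.09% for *H2-D1* occurred in another gene, for *H2-D1* mainly in *H2-Q1* and not in *H2-K1*. Reads shorter than 36 bases were removed by the authors, and the read length is not given in the sources used here. The split of reads between the heavy chains, and between them and other class I genes, is uncertain to that extent.

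*B2m* (NCBI gene 12010, chr2:122147687-122153082) encodes β2-microglobulin, the light chain shared by class I molecules. It was by far the most abundant of the 10 genes, with 81143 siCtrl reads and 67949 si*Vgll3* reads. Its level was 1340 TPM after si*Vgll3* against 1481 TPM after siCtrl (M = −0.14 [−0.16, −0.13]). The counting intervals of *B2m* and *H2-D1* overlapped, and the interval of their difference in M, 0.03 as *H2-D1* minus *B2m*, runs from −0.01 to 0.07. Per unit of length, *B2m* stood at 6.21 times the summed heavy chains in siCtrl and at 7.33 times in si*Vgll3*. The *B2m* promoter stretch is shown for comparison with the heavy chains, from chr2:122147543-122147643 on the plus strand, with an ISRE in its GAAA form, an NF-kB match, a CRE core and 1 CCAAT box in capitals.
B2m: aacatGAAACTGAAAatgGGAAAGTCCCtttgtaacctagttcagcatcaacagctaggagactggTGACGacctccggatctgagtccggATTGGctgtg
*B2m* was the only 1 of the 8 genes with a RefSeq promoter to hold the GAAA form, which 3.99% of 27025 genes hold. The AGTTTC form, chosen after the sequences were seen, was in *H2-K1* and *H2-D1* and in 0.603% of genes.

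*Tap1* and *Tap2* encode the subunits of the TAP peptide transporter. *Tap1* (NCBI gene 21354, chr17:34187556-34197225) drew 2859 siCtrl reads and 1415 si*Vgll3* reads. It was at 8.11 TPM after si*Vgll3* against 15.2 TPM after siCtrl (M = −0.91 [−0.999, −0.81]). *Tap2* (NCBI gene 21355, chr17:34204479-34216321) drew 4107 siCtrl reads and 2130 si*Vgll3* reads. It was at 14.5 TPM after si*Vgll3* against 25.8 TPM after siCtrl (M = −0.84 [−0.91, −0.76]). The subunits were not separated by counting error, with a difference in M of −0.07 (*Tap1* minus *Tap2*, interval −0.19 to 0.05), and *Tap2* stood at 1.70 times *Tap1* in siCtrl and 1.78 times in si*Vgll3*.

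*Tapbp* (NCBI gene 21356, chr17:33919478-33929290) encodes tapasin, which bridges TAP and the empty class I molecule. It drew 12622 siCtrl reads and 7524 si*Vgll3* reads. Its level was 46.3 TPM after si*Vgll3* against 71.9 TPM after siCtrl (M = −0.63 [−0.68, −0.59]). It was less far from 0 than *Tap1*, with a difference in M of −0.27 (*Tap1* minus *Tapbp*, interval −0.37 to −0.17). In the GENCODE annotation, 29.02% of the exonic bases of *Tapbp* lie in exons of a neighbour as well, mainly *Zbtb22* on the same strand and the antisense gene *Gm19412*. For *Tap2* and *Psmb8* that share was 18.5% and 14.7%, and for *Nlrc5* 0.918%. For *Psmb9* and *Tap1*, each of which overlaps the other, it was 5.79% and 3.87%. The kit marks the strand, but whether the counting used it is not given in the sources used here.

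*Psmb8*, *Psmb9* and *Psmb10* encode the catalytic subunits of the immunoproteasome, which take the places of the constitutive subunits *Psmb5*, *Psmb6* and *Psmb7* when a proteasome is newly built. *Psmb8* (NCBI gene 16913, chr17:34198195-34201454) drew 1150 siCtrl reads and 584 si*Vgll3* reads. It was at 8.07 TPM after si*Vgll3* against 14.7 TPM after siCtrl (M = −0.87 [−1.01, −0.72]). *Psmb9* (NCBI gene 16912, chr17:34182030-34187330) drew only 123 siCtrl reads and 29 si*Vgll3* reads. It was at 0.588 TPM after si*Vgll3* against 2.38 TPM after siCtrl (M = −2.02 [−2.66, −1.42]). *Psmb9* was the lowest and scarcest of the immunoproteasome genes, and adding 1 TPM to both libraries brought its M to −1.09. *Psmb10* (NCBI gene 19171, chr8:105935728-105938392) drew 2895 siCtrl reads and 1847 si*Vgll3* reads. It was at 24.6 TPM after si*Vgll3* against 35.7 TPM after siCtrl (M = −0.54 [−0.62, −0.45]), so its interval held the threshold of −0.5. *Psmb10* was no longer called lower with counts scaled to CPM (M of −0.49), by TMM (−0.49) or by DESeq2 size factors (−0.50, above the threshold before rounding), or with M centred on all genes (−0.49).

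The constitutive counterparts of these subunits did not share the lower values. *Psmb5* was at 295 TPM after si*Vgll3* against 260 TPM after siCtrl, *Psmb6* at 306 against 309 TPM, and *Psmb7* at 366 against 337 TPM. The difference in M, in which library scaling cancels, was −1.05 for *Psmb8* minus *Psmb5* (interval −1.20 to −0.90). It was −2.002 for *Psmb9* minus *Psmb6* (−2.59 to −1.42) and −0.66 for *Psmb10* minus *Psmb7* (−0.74 to −0.57). As a share of each pair's TPM, *Psmb8* went from 5.35% in siCtrl to 2.66% in si*Vgll3*, *Psmb9* from 0.764% to 0.192% and *Psmb10* from 9.57% to 6.29%. All immunoproteasome subunits together made up 5.50% of the catalytic subunit TPM in siCtrl and 3.32% in si*Vgll3*, so constitutive subunits dominated in both libraries.

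**Figure D2:**
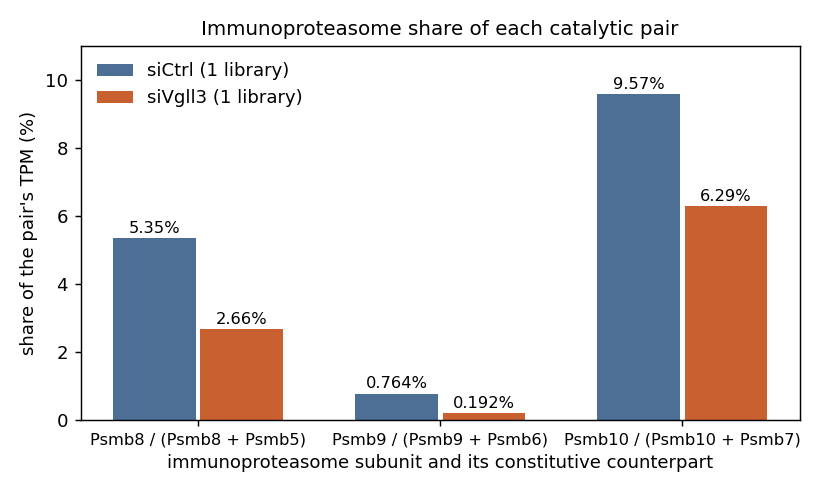
Share of each catalytic pair's TPM (%) held by the immunoproteasome subunit, with bars from 0 for the siCtrl and si*Vgll3* libraries, 1 each. The si*Vgll3* bar is shorter in each of the 3 pairs, and no bar passes 9.57%.

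*Nlrc5* (NCBI gene 434341, chr8:94434335-94527272) encodes the coactivator of class I genes and was near the limit of detection. It drew 103 siCtrl reads and 3 si*Vgll3* reads. Its level was 0.00487 TPM after si*Vgll3* against 0.231 TPM after siCtrl (M = −5.56 [−7.86, −3.98]) at an A of −3.09. From CPM its M was −4.94 [−7.24, −3.35], and with 1 TPM added to both libraries it was −0.29. Its 103 reads lie well above the 3 reads that a count of 0 allows, whereas its reads in si*Vgll3* do not.

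Ordered by M from low to high, the genes ran *Nlrc5*, *Psmb9*, *Tap1*, *Psmb8*, *Tap2*, *H2-K1*, *Tapbp*, *Psmb10*, *B2m* and *H2-D1*. Of the 9 steps between neighbours, 3 did not pass the counting interval of their difference: *Tap1* to *Psmb8*, *Psmb8* to *Tap2*, and *B2m* to *H2-D1*. The order was set by these same values, so the sign of each step was fixed in advance. *Tap1*, *Psmb8* and *Tap2* lay at −0.91 to −0.84, and the step from *Psmb10* to *B2m* was −0.39 (interval −0.48 to −0.31). Among all genes with A > 0, 4.02% had an M lower than that of *Tap1*, 6.53% lower than *H2-K1*, 10.2% lower than *Psmb10* and 40.5% lower than *H2-D1*.

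**Figure D3:**
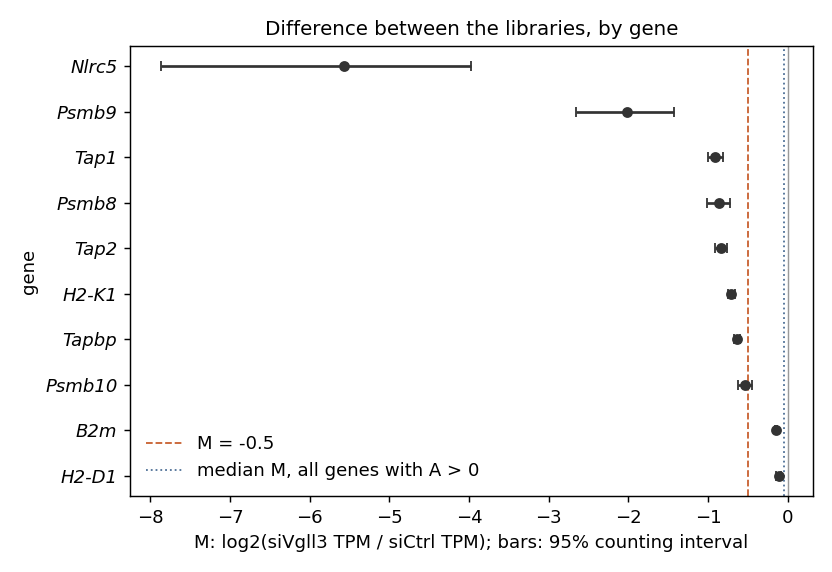
M of each gene (log2 ratio of si*Vgll3* to siCtrl TPM) with 95% counting intervals, the threshold of −0.5 (dashed) and the median of all genes with A > 0 (dotted, −0.05). From *Nlrc5* to *Psmb10* the points lie left of −0.5, and *B2m* and *H2-D1* lie at −0.14 and −0.11.

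By position, 7 of the 10 genes lie on chromosome 17, and 6 of these lie within the 1271 kb from *H2-K1* to *H2-D1*. *Psmb9*, *Tap1*, *Psmb8* and *Tap2* follow each other within 34.3 kb, and *Tapbp* ends 66.7 kb before *H2-K1*. Of the members inside the interval, 5 of 6 were lower, with a median M of −0.85. The other genes of the interval gave 7 lower and 2 higher of 42 with A > 0 (16.7% lower, beside 11.4% of all genes), with a median M of −0.04. The lowest of them was *H2-Ke6*, which encodes a hydroxysteroid dehydrogenase, at −0.93, and the highest was *Tnxb*, encoding the matrix glycoprotein tenascin-X, at 1.53. Both were named after their values were seen. The class II genes next to the *Psmb9* to *Tap2* cluster that had A > 0, *H2-DMa* and *H2-DMb1*, were at 0.23 and 0.39.

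**Figure D4:**
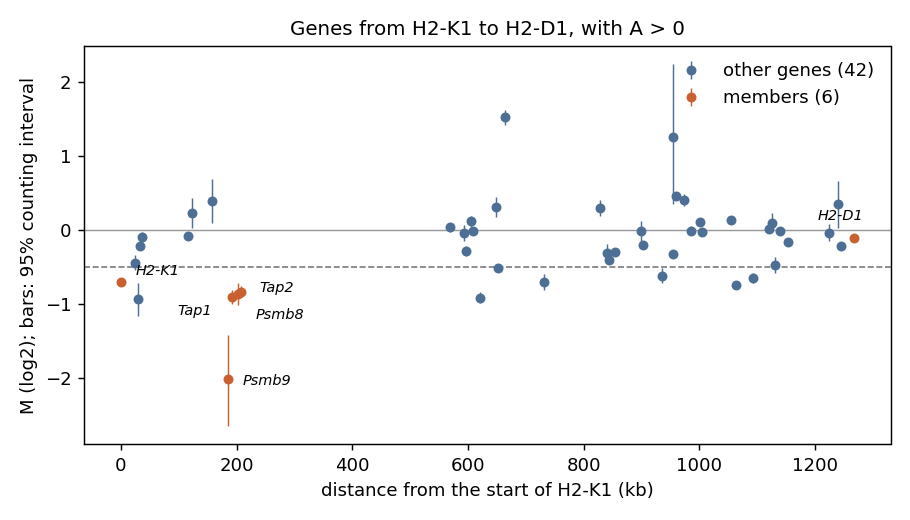
M with 95% counting intervals of the genes with A > 0 between *H2-K1* and *H2-D1*, by distance from the start of *H2-K1* in kb, with the 6 members and the 42 other genes in separate colours. The cluster from *Psmb9* to *Tap2* lies below the dashed line at −0.5, and most other genes lie above it.

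*Psmb9* and *Tap1* are transcribed away from each other from RefSeq starts 226 bases apart, so they share 1 promoter region. In the GENCODE annotation the spans of these genes overlap, so how their reads were split there is uncertain. The 225 bases between the starts, chr17:34187331-34187555, are written on the plus strand, toward *Tap1*, because both genes were lower and their starts flank it. Capitals mark a CCAAT box and a CRE core.
Psmb9 to Tap1: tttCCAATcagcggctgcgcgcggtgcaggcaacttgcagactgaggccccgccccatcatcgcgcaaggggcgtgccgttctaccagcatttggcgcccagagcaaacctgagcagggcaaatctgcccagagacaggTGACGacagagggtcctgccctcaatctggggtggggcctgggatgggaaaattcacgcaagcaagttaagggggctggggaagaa
M of *Psmb9* was below that of *Tap1* by a difference of −1.11 (interval −1.70 to −0.52). With 1 TPM added to both libraries, *Psmb9* was at −1.09 and *Tap1* at −0.83. The part of the shared region in these values was not tested.

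Matches were counted in the 250 bases before and 50 bases after each RefSeq start, for the 8 genes with an entry, on both strands. *Tap2* and *Nlrc5* had no entry, and *H2-K1* had 2 starts. The CRE core TGACG was in 5 of 8 (*H2-K1*, *H2-D1*, *B2m*, *Tap1* and *Psmb9*), and 23% of all genes hold it. The CCAAT box was in 6 of 8, the same genes and *Tapbp*, beside 41.1% of all genes. For *Psmb9* and *Tap1*, the CRE core and the CCAAT box are the same letters of their shared region, counted for each gene. The promoters of *H2-K1* and *H2-D1* are alike in sequence, so these counts are not of independent promoters. The NF-kB motif was in 3 of 8, *H2-K1*, *H2-D1* and *B2m*, beside 20.5%. A gamma-activated sequence (TTCNNNGAA) was in 1 of 8, *Psmb8*, beside 9.55% of all genes, and is shown in capitals within chr17:34198078-34198126 on the plus strand.
Psmb8: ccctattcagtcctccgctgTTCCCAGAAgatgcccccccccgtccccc
M of the genes with the NF-kB motif was −0.70 for *H2-K1*, −0.14 for *B2m* and −0.11 for *H2-D1*. The part of any of these motifs in the values of M was not tested. A match is a description of the letters and not a binding site.

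Other genes of the pathway were taken by role, and their counts stand beside 11.4% lower and 5.73% higher among all genes with A > 0. Peptide loading and trimming genes had 1 lower and 0 higher of 11, with a median M of −0.09. The lower gene was *Blmh*, a cytosolic aminopeptidase, at 49.7 TPM after si*Vgll3* against 70.6 TPM after siCtrl (M = −0.50 [−0.55, −0.46]), which passed the threshold only before rounding. *Calr*, the chaperone calreticulin of the loading complex, was at −0.27, and *Npepps*, another aminopeptidase, had the highest M at 0.30. *Erap1*, which trims peptides in the endoplasmic reticulum, was at 18.5 TPM after si*Vgll3* against 25.2 TPM after siCtrl (M = −0.45 [−0.50, −0.39]). *Erap1* was named after its value was seen.

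The constitutive proteasome core had 0 lower and 0 higher of 14 genes, with a median M of 0.02 and values from −0.13 (*Psmb4*) to 0.18 (*Psmb5*). *Psmb1*, the most abundant of them, was at −0.01. Proteasome activator and assembly genes had 1 lower and 0 higher of 9, beside 11.4% and 5.73% of all genes, with a median of 0.01. The lower gene was *Psme2*, at 96.1 TPM after si*Vgll3* against 136 TPM after siCtrl (M = −0.50 [−0.55, −0.45]), which also passed only before rounding. *Psme2* and *Psme1* encode the PA28 activator, which opens the proteasome core, and *Psme1* was at −0.42. *Psme3* and *Psme4*, which encode other activators, were at 0.18 and 0.26, and *Pomp*, an assembly factor, was at 0.06. *Psme1* and *Psme3* were named after their values were seen. Genes of ER-associated degradation and class I turnover had 0 lower and 0 higher of 10, from *Sel1l* at −0.36 to *Ube2j1* at 0.12, with *Vcp*, the most abundant, at −0.02.

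Further class I genes numbered 32 in the count table, of which 11 had 0 reads in both libraries and 12 had A > 0. Of the latter, 2 were lower and 1 was higher, beside 11.4% and 5.73% of all genes, with a median M of −0.15. *H2-Q4*, a class I gene of the Q region, was at 6.01 TPM after si*Vgll3* against 15.2 TPM after siCtrl (M = −1.34 [−1.47, −1.20]). *Fcgrt*, which encodes the heavy chain of the neonatal Fc receptor and pairs with β2-microglobulin, was at 62.5 TPM after si*Vgll3* against 100.2 TPM after siCtrl (M = −0.68 [−0.73, −0.64]). The higher gene was *H2-T22*, a class I gene of the T region, at 12.0 TPM after si*Vgll3* against 8.43 TPM after siCtrl (M = 0.51 [0.40, 0.62]). *H2-T22* was no longer called higher with 1 TPM added or where the whole interval had to pass 0.5. Beyond the windows shared with *H2-K1* and *H2-D1*, sequence shared among genes of the Q and T regions was not measured here. How far their reads can be told apart is uncertain. The class II pathway, which serves professional antigen-presenting cells, had 2 of 12 genes at A > 0 and 0 of them lower or higher. Its master regulator *Ciita* had 0 reads in both libraries, which allows up to 3 reads in each.

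Transcription factors that act on class I genes had 3 lower and 0 higher of 15, with a median M of −0.26. Of all genes with A > 0, 11.4% were lower and 5.73% higher. The lower genes included *Stat2* and *Irf9*, which encode factors of the interferon response. *Stat2* was at 5.61 TPM after si*Vgll3* against 17.1 TPM after siCtrl (M = −1.60 [−1.69, −1.52]). *Irf9* was at 10.2 TPM after si*Vgll3* against 30.8 TPM after siCtrl (M = −1.59 [−1.68, −1.51]). *Irf1*, an interferon-induced factor that binds class I and *Psmb9* promoters, was at −0.26 [−0.34, −0.19], and *Rfx5*, a subunit of the complex that NLRC5 joins, was at −0.44 [−0.55, −0.34]. Of the CCAAT-binding NF-Y subunits, *Nfyb* had the highest M among the 15 genes with A > 0, 0.15, and *Nfyc*, the most abundant of them, was at −0.04. The remaining subunit, *Nfya*, was at −0.36 [−0.43, −0.29]. *Irf9*, *Irf1*, *Rfx5* and *Nfya* were named after their values were seen.

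**Figure D5:**
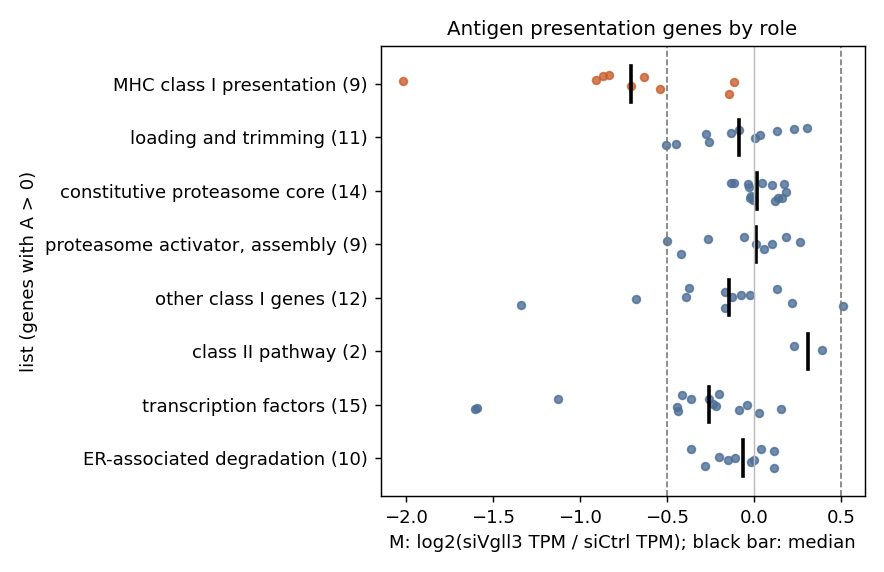
M of every gene with A > 0 in 8 lists by role, with the number of genes in parentheses, the median as a black bar and dashed lines at −0.5 and 0.5. The constitutive proteasome core lies between −0.13 and 0.18, while 7 of the 9 class I presentation genes lie left of −0.5.

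Markers of other cell types were read beside these results, since leukocytes and endothelial cells also express class I genes. Of 18 leukocyte markers, 11 had 0 reads in both libraries, among them *Ptprc*, which encodes the CD45 used for the sort, *Adgre1*, *Itgam* and *Cd3e*. The 4 with A > 0 gave 1 lower and 2 higher, beside 11.4% lower and 5.73% higher of all genes. Summed over the list, leukocyte markers were at 8.59 TPM after si*Vgll3* against 15.04 TPM after siCtrl. *Lyz2*, the lower marker, was at 3.13 TPM after si*Vgll3* against 10.9 TPM after siCtrl. Without *Lyz2*, the list summed to more TPM in si*Vgll3* than in siCtrl. Among the 4 with A > 0, *Cd14* had the highest M, 0.62. The 8 endothelial markers all had reads and summed to 30.5 TPM after si*Vgll3* against 32.9 TPM after siCtrl, and the 5 with A > 0 ran from *Tek* at −0.54 to *Cdh5* at 0.50. Of 8 cardiomyocyte markers, 6 had 0 reads, among them *Myh6*, and *Tnnt2* was at 10.4 TPM after si*Vgll3* against 60.0 TPM after siCtrl. All 10 myofibroblast and fibroblast markers had A > 0, and 4 were lower and 2 higher, with a median M of 0.08. *Vim*, the most abundant of them, was at 6541 TPM after si*Vgll3* against 5343 TPM after siCtrl. *Postn* had the lowest M, −1.22, and *Thy1* the highest, 0.72. The part of these cells in the class I values was not tested.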

How the data were processed

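mRNA libraries (TruSeq Stranded mRNA LT, NovaSeq) of siCtrl and si*Vgll3* myofibroblasts were analysed, 1 per condition. Trimming was by Trimmomatic, alignment to mm10 by HISAT2, and StringTie quantified known genes, as the paper's methods and the submitters' processing notes say, without versions. The authors deposited raw read counts per gene, without normalization, and TPM per gene, scaled for length and depth before deposit. All per-sample columns were used.

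The rule for a lower gene is the one the study states for its MA plot. The rule for a higher gene mirrors it here and is not one the study states. The study's formula for A is not given in the sources used here, and A as computed here may differ from it. Intervals are 95% Clopper-Pearson intervals for a gene, and log odds ratio intervals for the difference between 2 genes (exact conditional where a count was under 20). The intervals for a gene were tested on counts simulated with counting error alone, without the shift onto TPM. That test cannot show how they hold under variation between cultures or libraries, which the simulation left out. The intervals for a difference between 2 genes were not tested. Sequenced reads are not independent molecules. No model was fitted: edgeR 4.0.16 and DESeq2 1.42.0 served for scaling only, with scipy 1.17.1 for intervals.

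The genes, lists and motifs were chosen with earlier results of these data known. All 10 genes are named, and from each other list the genes with the lowest M, the highest M and the largest mean TPM. Coordinates and promoters are from RefSeq GRCm38.p6, and strands, exons and transcripts from GENCODE vM21 for GRCm38. All 10 genes matched RefSeq by gene ID, 8 with a promoter. Alternatives were CPM, TMM scaling, DESeq2 size factors, 0.1 or 1 TPM added, A > 2, no filter on A, centred M, a threshold of 1 and whole intervals beyond the threshold. Single values of 2 genes from these lists are not reported here.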

Additional observations from a re-analysis of the deposited data

How the results depend on the processing

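No paired analysis was possible because siCtrl and si*Vgll3* were sequenced once each. All 10 genes kept an M below 0 in the 60 values computed under other scalings, added constants or centring. Of these values, 17 lay outside the counting interval of their gene. Among them, on CPM, were *H2-D1* at −0.06 and *B2m* at −0.09. The median of the genes stayed between −0.77 (no filter on A) and −0.62 (CPM). The count of 7 lower genes was 5 with CPM, TMM scaling or DESeq2 size factors, where *Psmb10* and *Psmb9* left it (*Psmb9* by the filter on A), and 6 with centred M or with the whole interval beyond the threshold, without *Psmb10*. It was 1, *Psmb9*, with a threshold of 1 on M. The genes past either threshold in the 7 other pathway lists numbered 8, and were 5 with 1 TPM added, 15 with no filter on A, 4 with a threshold of 1 and 5 with the whole interval beyond the threshold. *Blmh* and *Psme2* left them under each scaling of the counts. With 1 TPM added, *Psmb9* minus *Psmb6* was −1.07, from −2.002. The other genes of the MHC interval had 11 lower with no filter on A. The whole CRE, TGACGTCA, was in 0 of 8 promoters, and the AGTTTC form of the ISRE, chosen after the data were seen, in 2 where the GAAA form was in 1. Depth limits *Nlrc5* and *Psmb9*, with 3 and 29 reads in si*Vgll3*.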
